A study of Mus musculus with 17 samples.

Results

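Claudins and the proteins that work with them seal the space between epithelial cells. The loops of 9 such genes were examined in H3K27ac HiChIP data of mouse embryoid bodies (EBs): the claudins Cldn3, Cldn4, Cldn5, Cldn6, Cldn7, Cldn9 and Cldn12, occludin (Ocln) and the scaffold ZO-1 (Tjp1). HiChIP joins DNA ends that lie close together in the nucleus and keeps the fragments bound by an antibody, here to H3K27ac, an acetylated histone found at promoters and enhancers in use. A loop is a pair of anchors (regions with H3K27ac signal) with the number of sequenced read pairs that connect them. A loop was assigned to a gene if one of its anchors lay within 5 kb of an annotated transcription start site (TSS). This gave 346 of 1211657 loops and 20 of 216081 anchors, for 9 of the 19244 protein-coding genes that had an anchor in that window. The 9 genes were chosen from an earlier comparison of the same libraries, in which the anchor at Cldn6 and Cldn9 stood out, so that the differences between groups given for them are descriptions and carry no test.

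All libraries came from R1 mouse embryonic stem cells, without any genetic change named in the labels, which were grown into EBs in hanging drops and kept in medium with 0.5 µM retinoic acid (RA) for 4 days. Unsorted EB cells gave 12 bulk libraries. Another 5 libraries, labelled cluster2, are called double positive here. The labels name only the cluster, and the study's text adds that these were cells sorted by FACS for EpCAM and CD38. The cells were sorted in several independent experiments, and which of these gave which library is not given in the sources used here. The double positive cells are a part of the EB population, so that the bulk libraries contain them too. Both groups shared the RA treatment and no untreated library was compared, so no effect of RA can be read from these values.

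Tight junctions form a belt near the apical side of epithelial cells. Claudins span the membrane and pair with claudins of the next cell, and which claudins are present sets how tight the belt is and which ions pass. Occludin lies beside them in the membrane, and ZO-1 ties both to actin inside the cell. Cldn6 is known from early embryonic epithelia and pluripotent cells, Cldn5 from the endothelium, and Cldn3, Cldn4 and Cldn7 from many simple epithelia. H3K27ac loops report on the activity and contacts of regulatory DNA and not on the amount of a protein.

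Sequencing depth in loops was 65178 to 241202 read pairs in bulk (median 135124.5) and 50508 to 118179 in double positive libraries (median 85966). The anchors used by the groups differed: 15074 of the joined anchors carried loops of both groups, 200999 only of bulk and 8 only of double positive libraries. The files list loops with a read pair and do not tell an anchor that was not called from one that had no pair, so a double positive value of 0 is given as such, without a fold change. Levels are in CPM, the number of read pairs scaled to a library of 1000000 loop read pairs after TMM adjustment. With library size as the only scaling, the median log2 difference of all 14115 tested genes moved from -0.52 to 1.21, a shift of 1.73, and every difference below shares in such a shift.

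The bulk libraries had a further property that touches several of the genes. In windows of 1 Mb, the share of a bulk library in the read pairs was compared between odd-numbered and even-numbered chromosomes at the same coordinates. Over 176 windows, Pearson's r of these log2 shares was 0.56 to 0.92 in the 12 bulk libraries (median 0.84), as a description. Over 104 windows, r was -0.11 to 0.08 in the double positive libraries. A bulk library that held many pairs at some distance from the start of one chromosome thus tended to hold many at the same distance on others. What produced this was not tested. Its size is given with the values of several genes, and its range over the 9 genes at the end. The p-values over bulk libraries contain this spread. Beyond the library numbers, nothing states whether bulk libraries came from separate EB cultures.

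The sequences around the Cldn6 promoter and its strongest distal partner are shown because this partner had more double positive read pairs with the Cldn6 window than any other anchor. For Cldn6, Cldn3, Cldn4 and Cldn7 they are the 250 bases before the start site (RefSeq, GRCm38.p6), written 5′ to 3′ on the gene's strand. All 4 were found unchanged in mm9, whole within an anchor of the gene. No entry of the promoter table matched Cldn9. Capitals mark matches, on either strand, to the motifs searched. These were the TATA box with the letters TATAAA, the GC box with GGGCGG, the CCAAT box, the site of GATA factors with AGATAA and that of FOXA factors with TGTTTAC. They were further the site of GRHL factors with AACCGGTT, the E-box with CAGGTG, the AP-1 site with TGAGTCA and that of TEAD factors with GGAATG. No 2 of the matches marked overlap.
Cldn6: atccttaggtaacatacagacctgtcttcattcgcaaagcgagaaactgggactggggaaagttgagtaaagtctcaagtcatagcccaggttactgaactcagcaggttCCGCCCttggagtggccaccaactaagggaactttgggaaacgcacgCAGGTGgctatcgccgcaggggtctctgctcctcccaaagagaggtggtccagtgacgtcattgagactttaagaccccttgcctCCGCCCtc
Cldn3: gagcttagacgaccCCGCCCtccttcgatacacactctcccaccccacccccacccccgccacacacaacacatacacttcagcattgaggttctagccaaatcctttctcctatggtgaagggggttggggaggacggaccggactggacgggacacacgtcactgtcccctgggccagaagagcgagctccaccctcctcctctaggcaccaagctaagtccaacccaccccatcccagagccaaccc
Cldn4: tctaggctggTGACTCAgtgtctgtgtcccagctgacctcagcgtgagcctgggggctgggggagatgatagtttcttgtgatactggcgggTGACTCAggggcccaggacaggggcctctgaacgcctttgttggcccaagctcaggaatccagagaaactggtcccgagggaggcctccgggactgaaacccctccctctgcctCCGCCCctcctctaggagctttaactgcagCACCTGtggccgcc
Cldn7: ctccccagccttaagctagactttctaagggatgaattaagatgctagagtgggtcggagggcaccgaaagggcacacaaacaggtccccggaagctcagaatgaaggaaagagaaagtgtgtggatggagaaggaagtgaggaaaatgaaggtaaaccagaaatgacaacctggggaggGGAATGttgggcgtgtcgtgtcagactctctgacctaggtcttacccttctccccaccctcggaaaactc
Cldn6 distal partner: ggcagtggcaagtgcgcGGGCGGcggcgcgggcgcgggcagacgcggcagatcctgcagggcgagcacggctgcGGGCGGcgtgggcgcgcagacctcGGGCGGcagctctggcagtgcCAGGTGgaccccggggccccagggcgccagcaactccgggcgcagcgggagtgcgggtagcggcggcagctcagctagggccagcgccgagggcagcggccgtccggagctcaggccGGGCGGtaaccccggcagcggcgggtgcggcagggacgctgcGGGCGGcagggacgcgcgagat

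The Cldn6 stretch (mm9 chr17:23816082-23816331, plus strand) held 2 GC boxes and 1 E-box. GC boxes, which bind SP and KLF factors, were in 32.9% of 27025 RefSeq promoters over the same 250 bases, and this E-box in 17.1%. The Cldn4 stretch (mm9 chr5:135422805-135423054, minus strand) held 2 AP-1 matches, a motif found in 4.43% of promoters, along with 1 GC box and 1 E-box. The Cldn3 stretch (mm9 chr5:135461834-135462083, plus strand) held 1 GC box. The Cldn7 stretch (mm9 chr11:69778031-69778280, plus strand) held 1 TEAD match, as did 12.6% of promoters. It belongs to the first of 2 RefSeq entries of Cldn7, and the other (mm9 chr11:69778673-69778922, same anchor) held 1 GC box, 2 E-boxes and no TEAD match. The 300 bases of the distal partner (mm9 chr17:23836716-23837015, plus strand as in the reference) are the part of that anchor with the most matches, 5 GC boxes and 1 E-box, and hold 44 CpG in 79.3% GC. The whole partner anchor held 8 GC boxes, a number that 16.5% of 1233 double positive anchors of similar width reached. It also held 2 GATA matches, and 40.8% of those anchors had as many. The TATA, FOXA, GRHL and AP-1 letters did not occur in it, while 75.0%, 30.3%, 0.97% and 38.8% of those anchors held them. These matches describe letters and not bound sites.

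Cldn6 and its neighbour Cldn9 carried most of the double positive signal. Cldn6 had 158, 122, 84, 70 and 155 read pairs in double positive replicates 1 to 5, or 577, 596, 660, 552 and 637 CPM. In bulk its lowest, median and highest values were 20.5, 48.2 and 124 CPM, from 1 to 14 read pairs. No bulk library reached the lowest double positive library. The means were 604 CPM ± 44.2 (SD, n = 5) and 54.0 CPM ± 28.2 (SD, n = 12), a log2 difference of 3.49 with SE 0.22. Cldn6 held 73.6% of the 800 double positive read pairs of the 9 genes and 17.5% of the 343 bulk read pairs.

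Cldn9, which lies tail to tail with Cldn6 on the opposite strand, shared its only anchor with Cldn6, so its read pairs are a subset of those of Cldn6 and no separate evidence. It had 114, 81, 56, 44 and 99 double positive read pairs (416, 396, 440, 347 and 407 CPM). In bulk it ranged from 0 to 41.4 CPM with a median of 24.1 CPM, and 3 of the 12 libraries had none. The log2 difference was 4.24 with SE 0.29, and again the groups did not overlap.

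The anchor common to both genes, chr17:23813264-23820713 (mm9), is 7.45 kb wide and covers the whole of Cldn6, at 23816332 to 23819413, and most of Cldn9, at 23819552 to 23820985. It also holds the start site of Tnfrsf12a, at 23814416, and lies within 5 kb of those of Hcfc1r1 and Thoc6. The Cldn9 start site lies 272 bases outside it. The anchor therefore has loops that cannot be given to one gene. It held 114, 81, 56, 44 and 99 read pairs in the double positive libraries and 0 to 5 in bulk, where 9 of 12 libraries had any. On the scaling of the anchor table this was 429 CPM ± 34.1 (SD, n = 5) against 19.8 CPM ± 13.7 (SD, n = 12), with a log2 difference of 4.33 (SE 0.31). By its 394 double positive read pairs it ranked 62 of 15082 anchors, of which the median had 34. By its 23 bulk read pairs it ranked 32354 of 216073, where the median had 8. Its 38 double positive partners placed it at 854, so that it stood higher by read pairs than by number of partners. Near the coordinates of Cldn6 on other chromosomes the share of single bulk libraries ran from 0.65 to 1.37 times their overall share.

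Most of these pairs were with close partners. Within 30 kb of the anchor, middle to middle, lay 71.3% of its double positive read pairs and 13 of the 23 bulk pairs. The nearest partner, chr17:23809799-23812398, covers most of Hcfc1r1, which encodes a regulator of HCF-1, and the start of Thoc6, a subunit of the mRNA export complex THO. It lay 5.89 kb away and had 41, 27, 10, 10 and 32 double positive read pairs against 7 over all bulk libraries. It is also the second anchor in the Cldn6 window, which puts 120 of the 589 double positive pairs of Cldn6 between its own anchors.

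The second partner had no protein-coding gene. It lies at chr17:23834733-23837929, its middle 15.3 kb from the Cldn9 start site, and no annotated gene of any type overlaps it. Its loop to the Cldn6 and Cldn9 anchor spanned 19.3 kb and had 39, 18, 18, 9 and 31 read pairs in the double positive libraries, and 1 in all of bulk. That was 29.2% of the anchor's double positive pairs (95% Wilson interval 24.9 to 33.9), against 30.5% (26.1 to 35.2) for the nearest partner. Over the libraries both shares averaged close to this, 28.1% ± 6.27 and 28.4% ± 7.75 (SD, n = 5). The distal partner joined both anchors of the Cldn6 window, with 192 of its 318 double positive read pairs, or 60.4%. Of its other 126 pairs, 29 went to the anchor at Ccdc64b, 15 to Gm5146 and 10 to 1520401A03Rik and Pkmyt1. In bulk 4 of its 26 pairs went to the Cldn6 window. The intervals treat read pairs as independent molecules, which PCR copies would not be, and leave out the spread between libraries.

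The next partners lay farther upstream of Cldn6. The anchor at the start of Ccdc64b (chr17:23794251-23799432) had 8, 10, 7, 9 and 12 double positive pairs and 2 bulk pairs at 20.1 kb. The anchor near Gm5146 (chr17:23681983-23688931) had 4, 7, 3, 2 and 4 double positive pairs and 1 bulk pair at 131.5 kb. The other 4 of the 8 strongest partners had 6 or 7 double positive pairs each: an anchor inside Mmp25 and one at its start, the anchor at Zfp13 and Zscan10, and the one at Prss33 and Tceb2, which encode a matrix metalloproteinase, zinc finger proteins, a serine protease and elongin B. Each of the 8 partners had bulk read pairs to some anchor, from 12 to 69. In bulk the nearest partner led with 7 of 23 pairs and no other partner had more than 2.

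**Figure D1:**
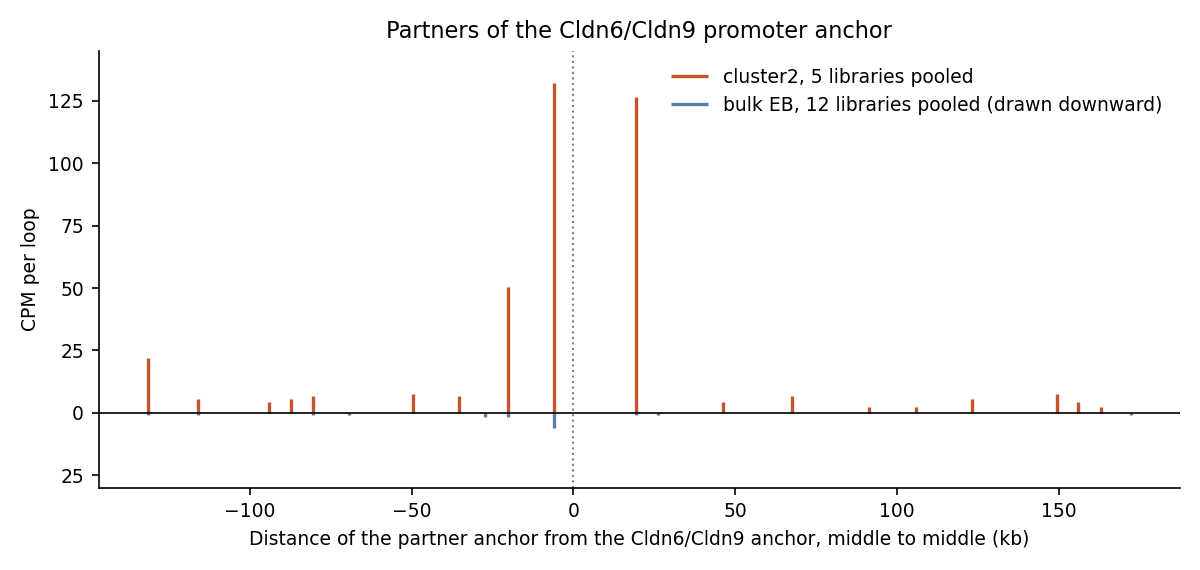
Loops of the anchor shared by Cldn6 and Cldn9. The horizontal axis is the distance of the partner from the anchor in kb and the vertical axis the pooled CPM of each loop, upward for 5 double positive (cluster2) and downward for 12 bulk libraries, with partners up to 250 kb away drawn. The 2 tall lines at 5.89 kb and 19.3 kb stand for 120 and 115 double positive read pairs, against 7 and 1 in bulk.

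Cldn7, a claudin of many epithelia that also lies along the sides of the cell, had a smaller difference between the groups. It had 45, 21, 15, 20 and 16 read pairs there, or 164, 103, 118, 158 and 65.7 CPM. In bulk it ran from 11.4 to 66.1 CPM with a median of 30.2 CPM. The lowest double positive library thus lay just under the highest bulk library, replicate 11. Near the coordinates of Cldn7 that bulk library held 2.97 times its overall share on the other chromosomes. The log2 difference was 1.82 with SE 0.31. One of its 2 anchors, chr11:69777097-69781420, covers the gene and had 117 double positive and 16 bulk pairs, while the other, chr11:69783465-69785237, had 22 bulk pairs and was not used by double positive loops.

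Nearly all partners of Cldn7 were promoters, with 116 of 117 double positive read pairs. Promoters outside a gene's own anchors held 90.0% of these pairs at Cldn3, 89.5% at Cldn5 and 80.0% at Cldn12. At Cldn9 they held 67.8% and at Cldn6 43.6%. The share over all double positive loops is not given here, so a high share is not read as a trait of Cldn7. The strongest partner of Cldn7 was the anchor at Slc2a4, which encodes the glucose transporter GLUT4. It lay 11.1 kb upstream and had 5, 3, 2, 2 and 4 double positive pairs and none in bulk. Next came 2 anchors at Rai12 and Ctdnep1, a nuclear envelope phosphatase, with 15 and 11 double positive pairs and 3 and 2 bulk pairs. The Cldn7 anchors also lie near a start site of Rai12 (elongator subunit ELP5), so these loops cannot be given to one of them.

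Cldn3 and Cldn4, neighbours on chromosome 5, differed from each other. Cldn3 had 9, 12, 5, 5 and 9 double positive read pairs, or 32.8, 58.6, 39.3, 39.4 and 37.0 CPM. In bulk it ranged from 0 to 123 CPM with a median of 19.3 CPM, so that the double positive libraries lay inside the bulk range. The log2 difference was 0.15 with SE 0.49. Its anchor, chr5:135460603-135463549, covers the gene. Abhd11, an alpha/beta hydrolase gene 23.0 kb downstream, was its strongest partner in both groups, with 11 double positive and 9 bulk pairs.

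Cldn4 had no double positive read pair, and none of its 3 anchors was used by double positive loops. In bulk it had 81 read pairs, with 0 to 28 per library and a median of 4, or 0, 33.4 and 268 CPM as the lowest, median and highest values. The anchor over the gene, chr5:135421257-135424397, had 19 bulk pairs and the one behind its 3′ end, chr5:135417235-135418960, had 45. Both also lie within 5 kb of a start site of Wbscr27, so their pairs cannot be given to Cldn4 alone. An anchor near Wbscr27, a methyltransferase gene 14.1 kb downstream, was the main partner with 17 bulk pairs. It was used by double positive loops, though not with Cldn4.

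Bulk replicates 3 and 9 held 52 of the 81 bulk pairs of Cldn4 and 26 of the 44 of Cldn3, that is 64.2% and 59.1%, while they held 22.0% of all bulk read pairs. Between 135.2 and 135.6 Mb of chromosome 5, where both genes lie, these libraries had 556 and 670 CPM (without TMM, for all loops there), the other bulk libraries 82.8 to 231, and the double positive libraries 495 to 725. The same coordinates on other chromosomes showed the same libraries standing out. On chromosome 6, replicates 3 and 9 had 414 and 605 against 0 to 140 in the rest of bulk, and on chromosome 3 they had 369 and 473 against 39.2 to 80.8. They lay above all other bulk libraries on each of the 8 chromosomes with loops there, chromosome 5 included. On X they had only 1 and 4 pairs. This interval was chosen after the values of Cldn3 and Cldn4 were seen.

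Without replicates 3 and 9 the bulk mean of Cldn3 fell from 34.3 to 19.3 CPM and that of Cldn4 from 62.7 to 30.6 CPM. Scaling every bulk library by its share at these coordinates on the other chromosomes brought the variance of the bulk counts, relative to counting error, from 3.89 to 1.23 for Cldn3 and from 8.87 to 1.83 for Cldn4. This scaling cannot move a level pooled over the bulk libraries by much, since the shares average to 1 over them by construction.

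**Figure D2:**
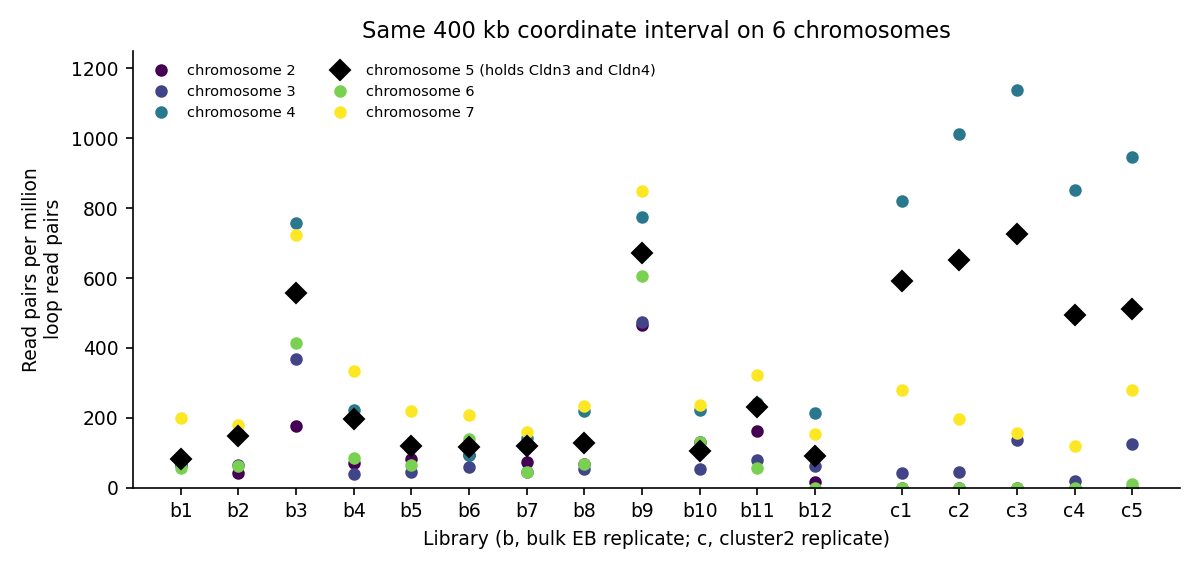
Read pairs of every library between 135.2 and 135.6 Mb of chromosomes 2 to 7, in CPM without TMM, for 12 bulk (b) and 5 double positive (c) libraries. Diamonds mark chromosome 5, which holds Cldn3 and Cldn4. Bulk replicates 3 and 9 stand above the other bulk libraries on every chromosome drawn.

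Cldn5 was rare in both groups. Its single anchor, chr16:18775326-18778515, had 7, 2, 1, 3 and 6 double positive read pairs (25.5, 9.77, 7.86, 23.7 and 24.7 CPM) and 0 to 4 in bulk libraries, with a lowest, median and highest value of 0, 15.5 and 25.5 CPM. The ranges overlapped nearly in full, and the log2 difference was 0.50 with SE 0.54. Of its 19 double positive pairs, 17 were with promoters, and here too no share over all loops is given. Its 3 leading partners had 3, 3 and 2 double positive pairs: the anchor at Cdc45 and Ufd1l (a replication factor and a cofactor of protein degradation), the one at 2510002D24Rik, and one without a gene.

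Cldn12 had 9, 4, 4, 5 and 13 double positive read pairs, or 32.8, 19.5, 31.5, 39.4 and 53.4 CPM. In bulk it ranged from 0 to 205 CPM with a median of 24.1 CPM. All bulk libraries but replicate 5 lay at or below 41.5 CPM, and this 1 library had 14 of the 41 bulk pairs. The log2 difference was -0.04 with SE 0.50, and 0.50 with SE 0.42 without bulk replicate 5. At 5.4 to 5.6 Mb, that library lay above all other bulk libraries on 16 of the 17 chromosomes counted. On chromosome 2 it had 285 CPM (without TMM) against 0 to 116. The count includes chromosome 5 itself, and 1 autosome and chromosome Y were not examined. Some chromosomes rest on few pairs of that library, such as 2 on chromosome 1 and 1 on X. Scaling by the shares at these coordinates on other chromosomes brought the variance of Cldn12 bulk counts, relative to counting error, from 5.59 to 0.76. The same scaling lowered the ratio at Ocln (1.63 to 1.21) and Tjp1 (1.70 to 1.40). The ratio was higher after scaling at Cldn6 (1.08 to 1.39), Cldn9 (0.91 to 1.26), Cldn5 (0.55 to 0.72) and Cldn7 (0.70 to 0.72). The partners of Cldn12 were the anchors at 1700015F17Rik and Gtpbp10, with 12 and 10 double positive pairs, and the loop between its own 2 anchors with 7.

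Ocln and Tjp1 had bulk loops only. Ocln had 9 read pairs over 6 of the 12 bulk libraries, the fewest of the 9 genes, and did not reach the minimum for the fit. Its anchor at the promoter, chr13:101320409-101323918, was not used by double positive loops, and 2 of its 9 pairs were with an anchor inside the gene itself. Tjp1 had 59 read pairs, with 16.5, 35.1 and 104 CPM as its lowest, median and highest bulk values. They came from 8 anchors spread over its several start sites, none used by double positive loops, and 25 pairs were at the promoter anchor chr7:72514681-72517535. No partner of Tjp1 had more than 3 pairs, and 88.1% of its pairs were with partners that double positive loops did not use either. Promoters of other genes held 6 of its 59 pairs, gene bodies 20 and intergenic anchors 32. At Cldn7 promoters held 32 of 38 bulk pairs. These counts were not tested.

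**Figure D3:**
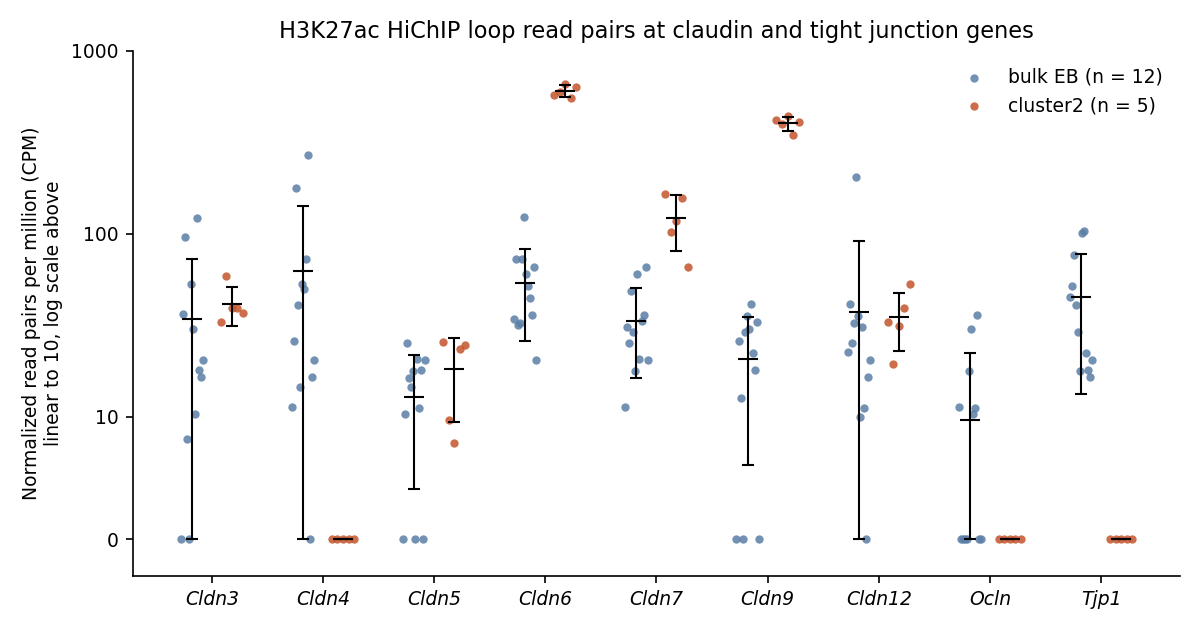
Level of each gene in every library, in CPM, linear to 10 and logarithmic above. Points are libraries, 12 bulk (blue) and 5 double positive (orange), and bars give the mean ± SD with the lower end stopped at 0. Cldn6 and Cldn9 have double positive values above every bulk value, while Cldn4, Ocln and Tjp1 have none.

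Of the 8 genes tested in the fit over all genes, 3 passed its threshold as higher in double positive libraries (Cldn6, Cldn7 and Cldn9), against 20.6% of all tested genes. As lower, 2 passed (Cldn4 and Tjp1), against 42.8%. In 2 genes every double positive library lay above every bulk library, against 7.22% of all genes, and in 1, Tjp1, every one lay below, against 14.9%. The genes were selected from this contrast, so nothing is read from these counts. With library size as the only scaling, the differences of Cldn3, Cldn5 and Cldn12 became 1.89, 2.17 and 1.70 on the log2 scale, having moved about as far as the median of all genes.

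The outermost anchor kept for Cldn6 lay 3934 bases from its start site and had 44 bulk and 315 double positive pairs, and the nearest one left out lay 16900 bases away, at Ccdc64b, with 23 and 200. For Cldn9 the nearest anchor left out, at 8587 bases, was the outermost one kept for Cldn6. For Cldn12 the anchor at 4909 bases was kept, with 19 and 20 pairs, and the next at 8009 bases had 9 bulk pairs only. In Cldn3, Cldn4, Cldn5, Cldn7, Ocln and Tjp1 the nearest anchors left out lay 6088 to 10624 bases away and had 3 to 31 bulk pairs and no double positive pair. The outermost anchors kept for Cldn4, Cldn7, Ocln and Tjp1 had no double positive pair either, with 45, 22, 9 and 3 bulk pairs.

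Within bulk, levels were compared per kb of anchor, since the genes had between 2.95 and 18.2 kb of it. Cldn3 led with 11.6 CPM per kb ± 13.1 (SD, n = 12). Below it came Cldn4 at 7.98, Cldn12 at 6.92, Cldn7 at 5.48, Cldn6 at 5.37, Cldn5 at 4.05, Cldn9 at 2.78, Ocln at 2.77 and Tjp1 at 2.49. None of the 8 steps between neighbours passed an exact two-sided sign permutation test after Benjamini-Hochberg adjustment over the 8 pairs. The smallest adjusted p was 0.35, for Cldn3 over Cldn4, with a difference of 3.66 CPM per kb and Cldn3 higher in 8 of 12 libraries. In double positive libraries Cldn6 and Cldn9 had 60.1 ± 4.39 and 53.8 ± 4.63 CPM per kb (SD, n = 5). Cldn7 followed at 19.9, Cldn3 at 14.1, Cldn12 at 6.49 and Cldn5 at 5.74. With 5 libraries the exact test cannot go below 0.0625, so the order is given without a call. Cldn7 and Cldn3 lay within their spread (Cldn7 higher in 3 of 5 libraries), as did Cldn12 and Cldn5.

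The distance over which the loops reached differed between the genes. Over all loops, 54.9% of bulk and 44.7% of double positive read pairs spanned more than 100 kb. At Cldn6 the share was 19.9% (95% Wilson interval 16.8 to 23.3) of 589 double positive pairs and 36.7% (25.6 to 49.3) of 60 bulk pairs, with median spans of 20.1 and 81.3 kb. Per library the double positive share at Cldn6 averaged 20.7% ± 5.25 (SD, n = 5). Cldn7 had 35.0% of 117 and 52.6% of 38 pairs. Cldn12 had 3 of 35 double positive pairs over 100 kb, 8.57% (2.96 to 22.4), and 23 of 41 in bulk, 56.1% (41.0 to 70.1). Its double positive share was 13.6% without replicate 5 and 22.9% with a limit of 50 kb, where bulk had 61.0%. With that limit the double positive share was above the bulk share at Cldn3 and Cldn5 and below it at 100 kb. The intervals of the 2 groups overlapped at Cldn3, Cldn5, Cldn7 and Cldn9 and did not at Cldn6 and Cldn12. Of the bulk pairs of Cldn12, 63.4% were with partners that double positive loops did not use. At Cldn6 a smaller share of the bulk pairs was with such partners. The spans of the 2 groups were thus taken over different anchors, and the part of this in the shares was not tested. The 5 double positive libraries had 4 to 13 pairs each at Cldn12, and no test was run. Tjp1 had the longest median span in bulk, 160 kb, and Cldn9 the shortest, 27.3 kb.

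**Figure D4:**
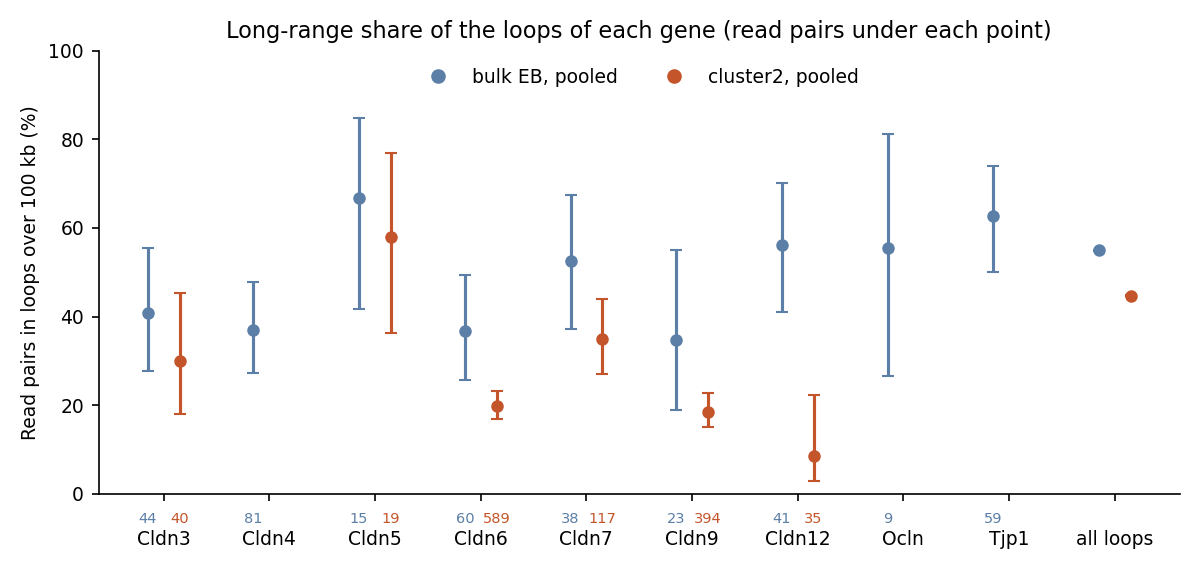
Share of read pairs in loops longer than 100 kb for each gene and for all loops, in %, pooled over 12 bulk (blue) or 5 double positive (orange) libraries. Bars are 95% Wilson intervals and small numbers the read pairs behind each point. At Cldn6 the share is 19.9% in double positive and 36.7% in bulk libraries.

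The genes whose levels over the 17 libraries were nearest to those of Cldn6 were Pigyl, Tapbp, Rnf181, Krt18 and Plin3, among tested genes that share no read pair with it. The root mean square differences in log2(CPM + 1) were 0.76, 0.81, 0.86, 0.86 and 0.87. Krt18, a keratin of simple epithelia, had 612 CPM ± 101 in double positive (SD, n = 5) and 75.9 CPM ± 32.7 in bulk libraries (SD, n = 12). Pigyl had 575 CPM ± 60.5 and 80.7 CPM ± 43.1.

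The wider tight junction machinery was followed in a list of 61 other genes, of which 59 had a read pair and 48 could be tested. In edgeR's quasi-likelihood fit over all genes, 10 passed as higher and 25 as lower in double positive libraries, and 13 did not pass. Of all tested genes 20.6% passed as higher and 42.8% as lower, and no count of this list or of its groups was tested against these shares. The median log2 difference of the 48 was -0.79, against -0.52 for all tested genes. Of the 25 lower calls, 12 were genes without any double positive read pair, which enter that median only as values below it, and 3058 of the 14115 tested genes had none. With both anchors required in loops of both groups, 9 were higher and 2 lower among 31 tested, and with library size as the only scaling 26 were higher and 15 lower. The counts of lower genes therefore changed with the anchors used and with the scaling.

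Of 16 other claudins 8 could be tested, and none of these passed as higher. As lower passed 5, none with a double positive pair: Cldn10, Cldn11, Cldn13, Cldn17 and Cldn20, at bulk means of 12.5 to 52.3 CPM. Cldn13 lies in the interval of chromosome 5 in which bulk replicates 3 and 9 stood out. Cldn15, a claudin of leaky intestinal junctions, had 127 CPM ± 18.2 in double positive (SD, n = 5) and 116 CPM ± 51.4 in bulk libraries (SD, n = 12) and did not pass, with an anchor near Fis1 as well. Cldn22 and Cldn25 did not pass either, with 18 double positive pairs each.

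Among 12 other membrane proteins of the junction, 10 could be tested, 2 passed as higher and 7 as lower. Esam, an adhesion molecule known from endothelial junctions, rose from 36.1 to 154 CPM (log2 difference 2.11, SE 0.28, adjusted p = 9.3e-08). Lsr, a protein of tricellular junctions, rose from 92.7 to 224 CPM (1.21, SE 0.24, adjusted p = 5.0e-05). Their anchors also lie near Vsig2 and near Usf2 and Fam187b. F11r (JAM-A) was lower, at 230 CPM against 407 (log2 difference -0.81, SE 0.19, adjusted p = 0.00028). Double positive loops used 1 of its 4 anchors. Jam2, Jam3 and Ildr2 passed as lower with 8, 2 and 6 double positive pairs, and Cxadr, Ildr1 and Bves with none. Double positive loops used 1 of 2 anchors at Jam2, 1 of 2 at Jam3 and the only 1 at Ildr2. Cxadr, the coxsackievirus and adenovirus receptor, had 57.6 CPM ± 24.1 in bulk (SD, n = 12).

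Of 13 other scaffolds, 12 could be tested, with 4 higher and 5 lower. Tjp3, a scaffold related to Tjp1, rose from 197 to 440 CPM (log2 difference 1.16, SE 0.22, adjusted p = 2.6e-05) and shares its window with Pip5k1c. Tjap1, Magi3 and Amotl2 passed as higher, by 1.06, 0.99 and 0.60 on the log2 scale. Amotl1 passed as lower by -1.93, with double positive loops at 1 of its 4 anchors. Cgn (cingulin), Cgnl1, Magi1 and Mpdz had no double positive pair, with bulk means of 27.8 to 63.7 CPM.

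Polarity proteins, which place the junction along the cell, had double positive read pairs in every case. Of 11 tested, 2 passed as higher and 6 as lower. Crb3, the epithelial Crumbs protein, rose from 32.0 to 100.3 CPM (log2 difference 1.54, SE 0.34, adjusted p = 0.00016), with Slc25a23 on the same anchor. Pard6a rose from 88.5 to 209 CPM (1.26, SE 0.26, adjusted p = 8.7e-05), with Acd and E130303B06Rik nearby. Its paralogs Pard6b and Pard6g passed as lower by -1.62 and -2.11. Double positive loops used 1 of the 2 anchors of Pard6b and 1 of the 3 of Pard6g. Pard3, the partner of the PAR6 proteins and of atypical PKC, had 332 CPM ± 92.4 in bulk (SD, n = 12) and 14.9 CPM ± 10.9 in double positive libraries (SD, n = 5), a log2 difference of -4.35 (SE 0.34, adjusted p = 8.9e-13), and double positive loops used 1 of its 17 anchors. Pard3b, Prkcz and Cdc42 were lower too, by -3.27, -1.24 and -0.94. Their anchors used by double positive loops were 1 of 2, 2 of 4 and 1 of 4.

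Of 9 signalling proteins and transcription factors tied to junctions, 7 could be tested, 2 passed as higher and 2 as lower. Rab13, a small GTPase of junction transport, rose from 41.9 to 187 CPM (log2 difference 2.06, SE 0.27, adjusted p = 5.7e-08), with the ribosomal gene Rps27 in the same window. Sympk, a polyadenylation factor also found at junctions, rose by 0.85, with Rsph6a and Foxa3, an endoderm transcription factor, in its window. Grhl2, a regulator of epithelial genes that include claudins, had 52 bulk and 10 double positive pairs and passed as lower by -2.10. Double positive loops used 1 of its 8 anchors. Arhgef2 was lower by -0.77, with 1 of its 2 anchors used. Grhl3, Ovol1 and Ovol2 did not pass. Where an anchor serves several start sites, these values cannot be given to one gene.

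**Figure D5:**
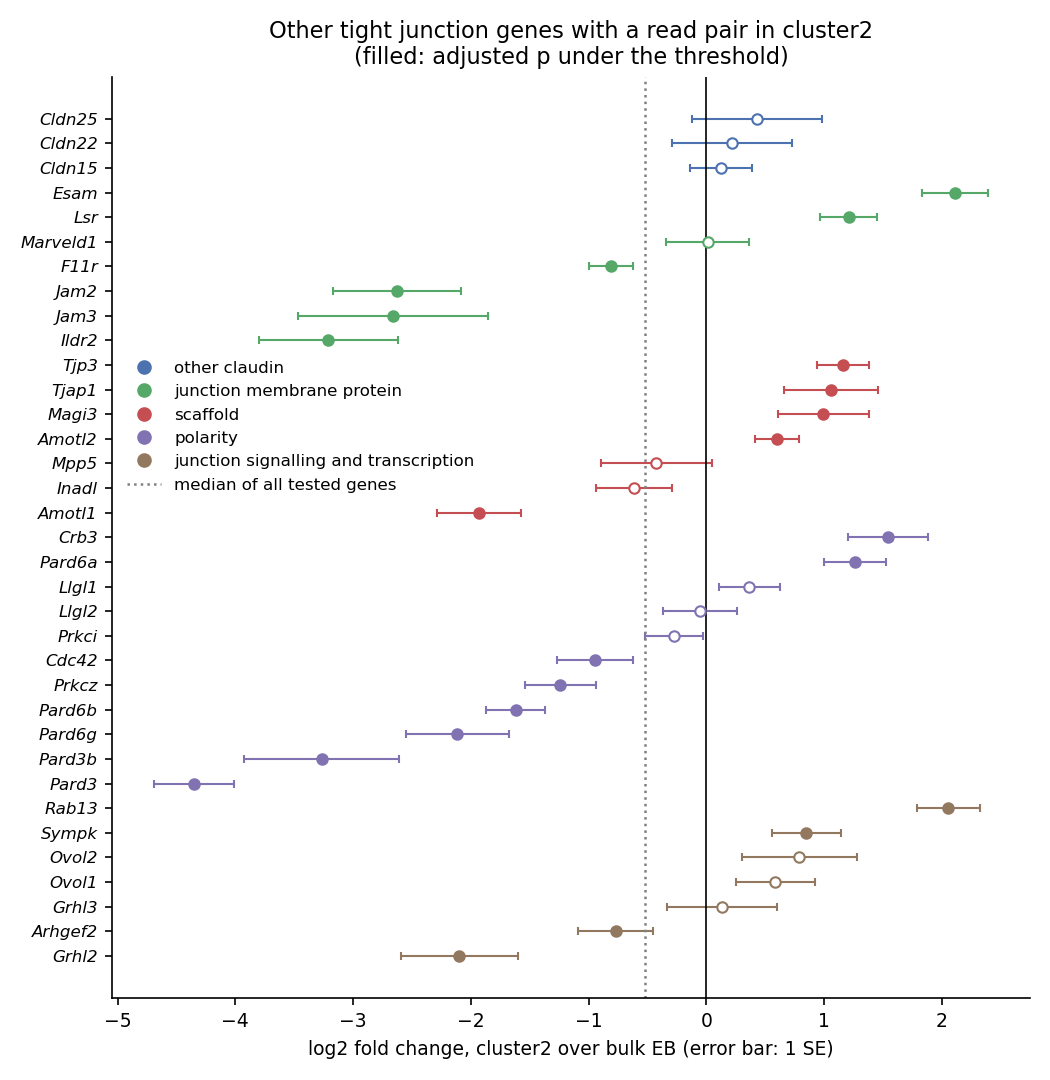
Log2 differences between double positive (cluster2) and bulk libraries for other tight junction genes that had a double positive read pair, by role, with 1 SE. Filled points passed the test and the dotted line is the median of all tested genes, -0.52. Pard3 lies lowest at -4.35 and Esam and Rab13 highest at 2.11 and 2.06.

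Marker genes were followed in the same fit. Of all its tested genes 20.6% passed as higher and 42.8% as lower, and 3058 of 14115 had no double positive pair. For the sorted proteins, Epcam had 25.2 CPM in double positive and 11.8 in bulk libraries (adjusted p = 0.11) and Cd38 had 48.5 and 31.3 (adjusted p = 0.19). Of 10 endoderm genes 3 passed as higher (Gata4, Foxa2 and Col4a1) and 1 as lower (Dab2), with summed levels of 960 to 1319 CPM in double positive and 389 to 1055 CPM in bulk libraries. All 5 tested neural genes of a list of 8 were lower. The summed levels of that list were 47.2 to 111 CPM in double positive and 685 to 1306 CPM in bulk libraries. Of 5 pluripotency genes 3 could be tested, with Pou5f1 and Tdgf1 higher and Esrrb, without a double positive pair, lower. None of the 6 endothelial genes had a double positive pair. Their levels summed to 61.5 to 207 CPM in bulk libraries, beside the levels of Cldn5 and Esam given above. Of these 6 only Pecam1 could be tested, and the rest had 5 to 18 bulk pairs. Fewer cells of a type and less signal per cell cannot be told apart in such libraries, and the part of cell composition in these differences was not tested.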

How the data were processed

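H3K27ac HiChIP was analysed in 12 bulk and 5 double positive (cluster2) libraries of EBs at RA-day 4, grouped by their titles. The authors aligned reads to mm9 with HiC-Pro and called peaks and loops with hichipper, and they deposited counts: read pairs per pair of anchors, not normalized, with no other column of per-sample values used here. Overlapping anchors of the 17 libraries were joined, which dropped 700 read pairs within one anchor, and loops were summed per gene (GENCODE vM1, an anchor within 5 kb of a TSS) and per anchor. Genes reaching 20 read pairs in all and present in 5 or more libraries entered edgeR 4.0.16 in R 4.3.3 (TMM, quasi-likelihood test, Benjamini-Hochberg, adjusted p under 0.05). On simulated counts of 13978 genes, of which 200 were changed 4-fold, 76.5% were recovered and 3.16% of the calls were false. The simulated counts had neither anchors used by bulk alone nor the position property of bulk, so these shares need not hold here. Spans, orders, motifs and exact tests used Python 3.11.15 with scipy 1.17.1.

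The genes, the lists and the tests were chosen with earlier results of these data known. Named were all 9 genes, the 5 genes nearest to Cldn6 and the 6 other tight junction genes with the largest changes in each direction. The plan was to name the 8 strongest partners of the Cldn6 and Cldn9 anchor in each group, and the 3 of other genes. The 8 of the double positive libraries were named. In bulk, and at other genes, only some of the leading partners were, so the choice leans to the double positive group. Further tight junction genes, the position windows, the levels without bulk replicates 3 and 9 and the scaling by position were added after the values were seen. Alternatives were library size alone, DESeq2 1.42.0 size factors, other filters, shared anchors, spans of at least 20 kb, a TSS window of 2.5 kb, the replicate number as a block and each library left out.

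Depth was 50508 to 241202 read pairs in loops per library, so that most loops of a single gene had 1 read pair: 62.4% of the 346 loops held 1 pair over all libraries. Sorting, alignment, peak calling and the anchor sets are already in these counts and could change which loops are listed. Same-numbered libraries of the groups did not deviate together (correlations of -0.01 to 0.01). With few read pairs per gene these deviations hold much counting error, so they cannot settle whether the numbers pair libraries. Promoter sequences were taken from RefSeq (GRCm38.p6) and located in mm9 by exact match. The result of 1 gene of the wider list is not reported here, though the gene is in the counts of that list.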

Additional observations from a re-analysis of the deposited data

Results flagged for a closer look

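Among the 5 double positive libraries, the level of Cldn3 in replicate 2 stood apart from the others by its distance relative to the whole range. It was 58.6 CPM, against 32.8 to 39.4 CPM in the other 4, from 12 read pairs. Of 7 such sets of double positive libraries examined, 1 was found in this way. Chance alone gives about 1 in 20 for a single set, and finding at least 1 among 7 is more likely than that. Nothing is concluded from this value. Without that library the log2 difference of Cldn3 was -0.01, against 0.15.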

How the results depend on the processing

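The Cldn6 and Cldn9 anchor kept its direction in each alternative run for it (the 2.5 kb window does not apply to an anchor), with log2 differences of 3.66 to 5.99, and of 4.01 to 4.38 when each library was left out. With library size alone 7800 genes were higher and 3702 lower, against 2906 and 6040, and of the other tight junction genes 26 were higher and 15 lower, against 10 and 25. Lower genes numbered 3786 with at least 50 read pairs (10494 genes tested), 9771 with no filter (19244 tested) and 988 with shared anchors (9845 tested), where 2 other tight junction genes were lower. The cause was not tested. Leaving out each library gave 2572 to 2941 genes higher and 5517 to 5940 lower, with 7 to 11 and 21 to 25 other tight junction genes. Without double positive replicate 1 the higher count of these was 7. The order in bulk gave 0 steps past the threshold in each alternative, and 0 without each bulk library. At a raw exact permutation p under 0.05 there was 1 step, Cldn3 over Cldn4 (p = 0.043). Cldn6 differed by 2.71 with shared anchors, 2.83 with spans of at least 20 kb, 4.13 with the 2.5 kb window and 5.26 with library size alone. Cldn7 differed by 2.90 with the 2.5 kb window and 3.57 with library size alone. With a limit of 50 kb in place of 100 kb, long loops held 28.9% of double positive and 61.7% of bulk pairs of Cldn6, and 22.9% and 61.0% at Cldn12. At Cldn3 and Cldn5 the order of the groups turned, with double positive shares of 62.5% and 84.2%, both above bulk.

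With the replicate number as a block, over the numbers that both groups share, 2588 genes were higher and 5811 lower, against 2768 and 6008 in the same libraries without the block. The same block gave 4.77 for the Cldn6 and Cldn9 anchor and 8 and 24 other tight junction genes. With 9 to 81 bulk pairs per gene, differences of Cldn3, Cldn5, Cldn12 and Ocln were not detectable at this depth unless large.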

Other observations

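At 5.4 to 5.6 Mb, the coordinates of Cldn12, bulk replicate 5 had 230 CPM (without TMM) on chromosome 17, against 20.1 to 83.0 in the other bulk libraries, and 147 on chromosome 10, against 0 to 23.3. Over the positions of the 9 genes, the largest share of a bulk library on the other chromosomes, relative to its overall share, ranged from 1.28 at Tjp1 to 3.67 at Cldn12, and in double positive libraries from 1.03 to 1.16.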
